A study of Mus musculus with 6 samples.

Results

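The genes described here are 8 genes of the red cell lineage: the embryonic globins Hba-x, Hbb-bh1 and Hbb-y, the haem enzyme Alas2, the membrane genes Slc4a1, Epb42 and Rhag, and the transcription factor Klf1. They were taken by symbol, through every probe set whose platform annotation names that gene alone. This gave 15 of the 45037 probe sets and 8 of the 18193 genes that a probe set names alone. Of these, 10 probe sets of 6 genes were bright enough to be tested. No probe set of Epb42 or Rhag was.

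The arrays hold total RNA from mouse ovaries at E15.5, with 3 arrays from a Dmrt1 knockout and 3 from wild type. Dmrt1 encodes a DM domain transcription factor, and the design describes its removal as conditional. The labels give no strain, no allele, no Cre line, and no Cre status of the wild-type embryos. The sample descriptions number the arrays of each group 1 to 3, and these numbers are used here, while the titles number the wild-type arrays differently. Neither says whether an array stands for a separate animal, litter or pool. The spread behind every p-value is thus only that among these samples, and it may be technical.

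Red cells form in overlapping waves. Primitive erythroblasts arise in the yolk sac, carry embryonic globins and mature in the circulation, while definitive erythroblasts arise in the fetal liver and carry adult globins. A fetal ovary makes no red cells of its own, so erythroid RNA in it is ordinarily that of blood in its vessels. During maturation, KLF1 and GATA1 switch on globin, haem and membrane genes. Late precursors then lose most of their RNA, and globin transcripts are among the last to persist.

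Values are GCRMA intensities, given here as log2. GCRMA adjusts for background by the base content of the probes and presses dim signals towards a floor. Testing required log2 4, which is an intensity of 16, on 3 or more arrays. Levels are not compared between genes, since each probe set has its own response.

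Pearson's r across probe sets was 0.985 to 0.993 for arrays of the same group, and 0.973 to 0.980 for arrays of different groups. No pair held identical values. The probe set for Dmrt1 was dim on every array, at log2 2.58 to 3.10 in knockout against 3.08 to 3.70 in wild type, and the groups overlapped. Whether it lies in the deleted stretch is unknown, so it checks nothing. A pair of arrays stood apart. Xist, the RNA of the inactive X chromosome, averaged log2 1.81 over its 3 probe sets on knockout replicate 1, against 9.75 and 9.85 on the other knockout arrays and 10.7 to 10.9 in wild type. On wild-type replicate 3, markers of fetal hepatocytes were high. The labels explain neither, and whether knockout replicate 1 differs from the others in its sex chromosomes was not tested. Markers of the fetal ovary, such as Ddx4 and Foxl2, were above the filter level on every array, and all 8 of that list were tested.

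Sequence before the start of 4 member genes is shown because GATA1 and KLF1 act through short words in such regions. These genes differ in how they vary between arrays, but all 4 windows hold both kinds of word. Whether the words bear on that variation was not tested. Each line gives the 250 bases before the start, 5′ to 3′ as the gene is read, from RefSeq. Capitals mark, on either strand, CACCC (the word of KLF1) and the words of GATA1, which are AGATAA, or AGATAG, or TGATAA, or else TGATAG.

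Hba-x, GRCm38.p6, chr11:32276350-32276599, + strand: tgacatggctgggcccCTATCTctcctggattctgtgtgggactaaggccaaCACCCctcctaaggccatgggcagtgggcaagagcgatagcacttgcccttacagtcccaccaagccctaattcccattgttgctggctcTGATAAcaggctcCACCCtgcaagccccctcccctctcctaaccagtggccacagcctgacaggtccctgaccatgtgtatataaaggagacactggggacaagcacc
Hbb-y, GRCm38.p6, chr7:103853208-103853457, - strand: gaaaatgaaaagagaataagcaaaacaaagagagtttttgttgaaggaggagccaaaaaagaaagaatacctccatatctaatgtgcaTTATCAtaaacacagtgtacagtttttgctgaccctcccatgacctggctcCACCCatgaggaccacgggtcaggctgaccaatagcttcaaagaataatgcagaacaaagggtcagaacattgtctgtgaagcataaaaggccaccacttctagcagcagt
Alas2, GRCm38.p6, chrX:150547167-150547416, + strand: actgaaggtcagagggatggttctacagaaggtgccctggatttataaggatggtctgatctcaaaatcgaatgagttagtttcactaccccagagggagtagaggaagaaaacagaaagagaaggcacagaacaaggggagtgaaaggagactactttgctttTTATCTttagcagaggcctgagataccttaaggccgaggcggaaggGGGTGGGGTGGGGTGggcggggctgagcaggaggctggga
Klf1, GRCm38.p6, chr8:84901732-84901981, + strand: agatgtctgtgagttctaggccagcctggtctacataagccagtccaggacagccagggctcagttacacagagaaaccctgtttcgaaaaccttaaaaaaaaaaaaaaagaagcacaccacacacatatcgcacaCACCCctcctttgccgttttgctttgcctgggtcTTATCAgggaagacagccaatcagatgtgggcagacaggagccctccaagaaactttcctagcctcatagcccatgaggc

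Windows were found for 6 members, these 4 together with Epb42 and Rhag, and not for Slc4a1 and Hbb-bh1. A GATA word stood in 6 of the 6, against 26.5% of 32851 RefSeq windows of that length. CACCC stood in 5 of the 6, all but Epb42, against 52.0% of all windows. The Klf1 window held TGATAA on the opposite strand, 80 to 75 bases before the start, and Alas2 held AGATAA on the opposite strand, 86 to 81 bases before it. Alas2 also held 3 CACCC words on the opposite strand, between 40 and 26 bases before the start. A match is a description of these letters and not a binding site.

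Slc4a1 fell in the knockout ovaries, to a level 2.72-fold below wild type, and was the only tested member to pass. It encodes band 3, the anion exchanger that carries bicarbonate across the red cell membrane and anchors the membrane skeleton. Its brightest probe set read log2 7.30, 7.26 and 7.93 in knockout and 9.70, 8.24 and 8.88 in wild type, here as below in the order of replicates 1 to 3. All knockout arrays lay below all wild-type arrays. The mean was 7.50 ± 0.38 (SD, n = 3) in knockout and 8.94 ± 0.73 (n = 3) in wild type. The knockout minus wild-type difference was -1.44 ± 0.33 with a 95% interval of -2.18 to -0.71 (limma adjusted p = 0.0275). Errors after ± are SDs for group means and limma's SEs, from 3 arrays in each group, for differences. In whole ovaries, fewer red cells and less of this RNA per red cell cannot be told apart.

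A second probe set of Slc4a1 gave the same picture. It read log2 7.09, 6.77 and 7.48 in knockout and 9.32, 8.06 and 8.49 in wild type, without overlap, a difference of -1.51 ± 0.30 (limma adjusted p = 0.0143). The third probe set stayed between log2 2.22 and 2.42 on all arrays and was not tested. With the brightest probe set, the call ended without knockout replicate 1 (limma adjusted p = 0.0837), knockout replicate 2 (0.0684), wild-type replicate 1 (0.0775) or wild-type replicate 3 (0.0682). The second probe set passed without any single array (limma adjusted p at most 0.0432), and did not pass without knockout replicate 1 and wild-type replicate 3 together (0.0626).

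Beside all genes, 1 of the 6 tested members was lower in knockout, where 2.27% of 11897 tested genes were called lower, 1.28% higher and 3.55% in either direction. Counted by probe sets, 2 of 10 were called, both lower, against 6.6% of 22040, with 5.15% lower and 1.46% higher. The groups did not overlap for 1 of the 6, with knockout lower, and 11.4% of all tested genes showed such a gap. The difference was negative for 5 of the 6 members and for 46.6% of all tested genes. Its median was -0.63 over the 6 and 0.02 over all tested genes. The members were chosen with earlier results of these data known, so these shares describe them and test nothing.

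**Figure D1:**
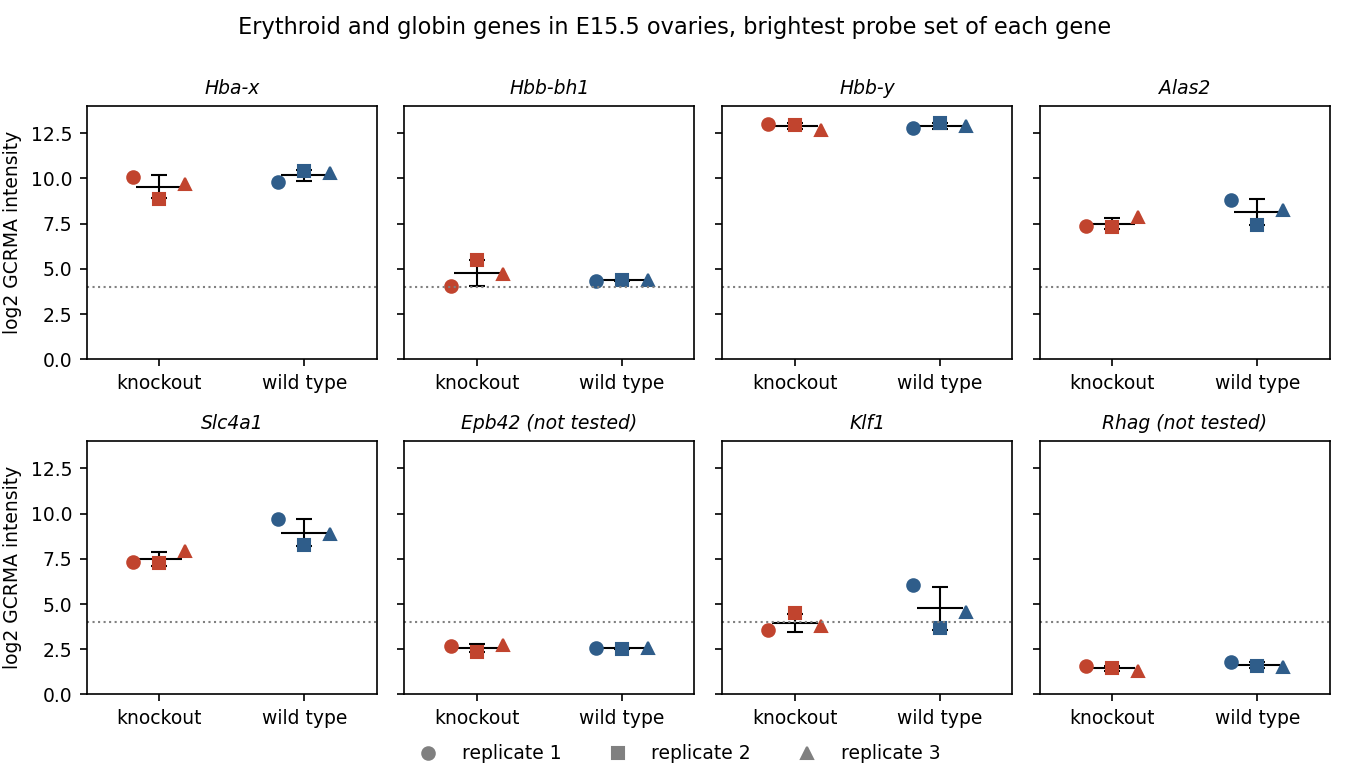
Log2 GCRMA intensity of the 8 erythroid and globin genes on each array, through the brightest probe set of each gene. Symbols are the replicates of knockout (red) and wild type (blue), the horizontal bar and whiskers are the mean and SD of 3 arrays, and the dotted line is the filter level of log2 4. Slc4a1 is the only panel in which all knockout arrays (at most 7.93) lie below all wild-type arrays (at least 8.24).

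Alas2 and Klf1 did not pass, and both were brightest on the same wild-type array as Slc4a1. Alas2 encodes the erythroid form of the enzyme that begins haem synthesis. It read log2 7.35, 7.31 and 7.85 in knockout and 8.81, 7.41 and 8.23 in wild type. Wild-type replicate 2 lay within the knockout range, so the groups overlapped. The difference was -0.64 ± 0.31, with a 95% interval of -1.34 to 0.05 (limma adjusted p = 0.279). Without wild-type replicate 1 it was -0.32 (limma adjusted p = 0.637), and without wild-type replicate 2 it was -1.01 (0.0583).

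Klf1 encodes the erythroid Krüppel-like factor, which activates globin and membrane genes. It read log2 3.58, 4.51 and 3.78 in knockout and 6.05, 3.68 and 4.57 in wild type. Only wild-type replicate 1 stood clear of the filter level, and 2 knockout arrays and 1 wild-type array lay below it. The difference was -0.81 ± 0.50, with a 95% interval of -1.92 to 0.30 (limma adjusted p = 0.401). Without wild-type replicate 1 it was -0.17 (limma adjusted p = 0.863).

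The embryonic globins did not pass, and they differed among themselves. Hbb-bh1 and Hbb-y are neighbours on chromosome 7 in the beta-globin cluster, and Hba-x lies next to Hba-a1 on chromosome 11. Hbb-y, an embryonic beta-like chain, was bright on all arrays. Its brightest probe set read log2 13.01, 12.96 and 12.69 in knockout and 12.76, 13.05 and 12.89 in wild type. The ranges overlapped nearly in full, and the difference was -0.02 ± 0.10, with a 95% interval of -0.24 to 0.21 (limma adjusted p = 0.954). Its other probe sets differed by -0.01 and -0.18 (limma adjusted p = 0.976 and 0.654). Whether these probe sets also respond to related globin transcripts, or lose differences at such brightness, was not tested. The small differences are thus those of the probe sets and may not be those of the Hbb-y transcript alone.

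Hba-x encodes zeta globin, the embryonic alpha-like chain. It read log2 10.09, 8.87 and 9.67 in knockout and 9.82, 10.40 and 10.29 in wild type. Knockout replicate 2 was the lowest array, and knockout replicate 1 lay above wild-type replicate 1. The difference was -0.62 ± 0.27, with a 95% interval of -1.23 to -0.01 before adjustment, and did not pass (limma adjusted p = 0.232). Without knockout replicate 2 it was -0.29 (limma adjusted p = 0.411), and without knockout replicate 1 it was -0.90 (0.0834).

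Hbb-bh1, the other embryonic beta-like chain, was dim. Its brightest probe set read log2 4.05, 5.48 and 4.72 in knockout and 4.34, 4.38 and 4.37 in wild type, with knockout replicate 2 highest and knockout replicate 1 lowest. The difference was 0.39 ± 0.31 (limma adjusted p = 0.526), with a 95% interval of -0.29 to 1.07. Without knockout replicate 2 it was 0.03 (limma adjusted p = 0.958). Another tested probe set had the opposite sign (-0.26 ± 0.27, 0.65), with an interval of -0.86 to 0.35 that overlaps the first. The remaining one, under the filter, differed by 0.46 and was likewise highest on knockout replicate 2.

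Epb42 and Rhag were at the floor. Epb42 encodes protein 4.2, which ties band 3 to the membrane skeleton, and its brighter probe set ranged from log2 2.32 to 2.75 in knockout and from 2.52 to 2.56 in wild type. Rhag encodes the Rh-associated glycoprotein, and its probe set ranged from log2 1.30 to 1.59 in knockout and from 1.52 to 1.79 in wild type. Such levels give no measure of either transcript. Fitted with no filter, neither passed (limma adjusted p = 0.918 for Epb42 and 0.385 for Rhag).

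**Figure D2:**
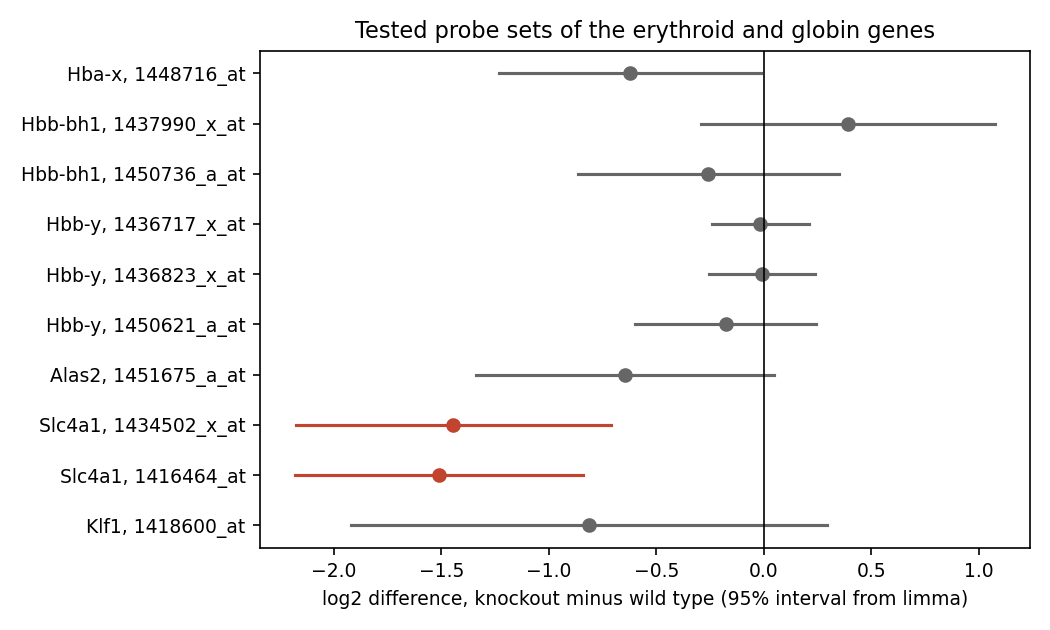
Log2 difference, knockout minus wild type, for the 10 tested probe sets of the erythroid and globin genes, each named by gene and probe set identifier. Points are the differences and lines the 95% intervals from limma (3 arrays per group), with red for an adjusted p under 0.05. Both tested Slc4a1 probe sets lie left of zero, and the Hbb-y probe sets lie close to it.

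The members did not share an order of arrays. Among the wild-type arrays, Slc4a1, Alas2 and Klf1 were highest on replicate 1 and lowest on replicate 2. Hbb-y and Hba-x ran the other way, highest on wild-type replicate 2 and lowest on wild-type replicate 1. Wild-type replicate 1 exceeded the mean of the other wild-type arrays by 1.14 for Slc4a1, 0.99 for Alas2 and 1.92 for Klf1 on the log2 scale. The same contrast was -0.20 for Hbb-y and -0.52 for Hba-x, and its median over all tested genes was -0.01.

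The other erythroid genes came from 5 lists with 73 genes. The array named 59 of them alone, and 41 were tested. In limma, 0 of the 41 passed, and 4 had an unadjusted p under 0.05, 3 of them lower and 1 higher in knockout. Over all tested genes 17.4% had such a p. The median difference of the 41 was -0.01. The other 18 named genes were under the filter and are not in these counts. Whether RNA of the 41 came from red cells or from other cells of the ovary was not tested. Their counts and median thus do not stand for red cells alone.

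Among 2 tested genes of adult globins, Hbb-b2, an adult beta chain, differed by 0.06 ± 0.09 (limma adjusted p = 0.767), with a 95% interval of -0.14 to 0.25. Hba-a2, an adult alpha chain, differed by 0.42 ± 0.22 (limma adjusted p = 0.326). It was highest on knockout replicate 1 and lowest on wild-type replicate 1. A further 4 probe sets list several adult globin genes and name none of them alone. They read log2 11.3 to 13.7, differed by -0.23 to -0.04, and did not pass (limma adjusted p at least 0.473). Those listing Hba-a1 and Hba-a2 did not share the array order of the Hba-a2 probe set. A pair of them was highest on wild-type replicate 1 (log2 11.86 and 13.14), and the other on wild-type replicate 3 (13.19).

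Of 13 tested genes of haem synthesis and iron supply, 0 passed, and 1 had an unadjusted p under 0.05. That gene was Slc25a37, which encodes mitoferrin, the mitochondrial iron importer of erythroblasts. It read log2 8.43, 8.30 and 7.53 in knockout and 9.31, 8.66 and 9.13 in wild type, without overlap. Its difference of -0.94 ± 0.25 fell short of the threshold (limma adjusted p = 0.053, and 0.0449 to 0.193 over the other fits). Hmox1, which breaks down haem, differed by -0.38 ± 0.19 (limma adjusted p = 0.3). Fech, which inserts iron to complete haem, differed by 0.17 ± 0.09 (0.33).

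Of 12 genes of the red cell membrane and skeleton on the array, 4 were tested and 0 passed in limma, with 0 at an unadjusted p under 0.05. Tmod1, a cap of actin filaments, differed by -0.15 ± 0.08 (limma adjusted p = 0.337). Dmtn, an actin-bundling protein of the membrane skeleton, differed by -0.16 ± 0.18 (0.663), and Gypc, glycophorin C, by -0.09 ± 0.12 (0.745). The other 8 were under the filter. Among those 8, named after their values were seen, the blood group gene Ermap read log2 3.25 to 3.66 in knockout and 5.84, 3.81 and 4.79 in wild type. Kel, the Kell blood group protein, read 2.03 to 2.57 in knockout and 4.37, 2.79 and 3.11 in wild type. Both were brightest on wild-type replicate 1. Of the rest of those 8, also named afterwards, Rhd differed by -0.67. Ank1, Sptb, Add2, Xk and Icam4 differed by only -0.08 to 0.16.

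Of 13 tested erythroid transcription factors, 0 passed in limma and 2 had an unadjusted p under 0.05. Bcl11a, a repressor of embryonic globins, read log2 7.55 to 7.90 in knockout against 7.03 to 7.41 in wild type, without overlap (difference 0.46 ± 0.17, limma adjusted p = 0.159). Nfe2, a globin activator, differed by -0.50 ± 0.22 (limma adjusted p = 0.236), and Lmo2, a bridging protein of the GATA1 complex, by -0.29 ± 0.13 (0.247). Gata1, named after its values were seen, read log2 3.84 to 4.11 in knockout and 5.15, 3.87 and 4.38 in wild type. It was again brightest on wild-type replicate 1.

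Of 9 tested genes of erythroid maturation, 0 passed in limma and 1 had an unadjusted p under 0.05, Car2, a carbonic anhydrase (-0.59 ± 0.25, limma adjusted p = 0.22). Pklr, the red cell and liver pyruvate kinase, differed by -0.89 ± 0.45 (limma adjusted p = 0.302), with wild-type replicate 1 at log2 6.33 and the other arrays between 3.70 and 4.84. Mkrn1 differed by 0.24 ± 0.12 (0.32). Hemgn, an erythroid nuclear protein named after its values were seen, was under the filter. It read log2 1.42 to 2.50 in knockout and 5.79, 3.12 and 3.49 in wild type, and passed when no filter was set (limma adjusted p = 0.0497). Of the rest of that list under the filter, also named afterwards, Trim10 differed by -0.59. Epor, Car1, Cited4 and Tfr2 differed by only -0.17 to -0.05.

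Wild-type replicate 1 was the highest of the 6 arrays for 15 of the 41 other erythroid genes tested and for 11.9% of all 11897 tested genes. Among the tested members the count was 3 of 6, Alas2, Slc4a1 and Klf1. It was not particular to erythroid genes. Among the tested genes of the marker lists described below, it was 6 of 12 for macrophages and leukocytes and 2 of 9 for endothelium. For fetal ovary it was 0 of 8, for fetal hepatocytes 0 of 4 and for megakaryocytes 0 of 1. These counts were taken after the values were seen. The median over the tested members was -0.24 without that array, against -0.63 with it.

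**Figure D3:**
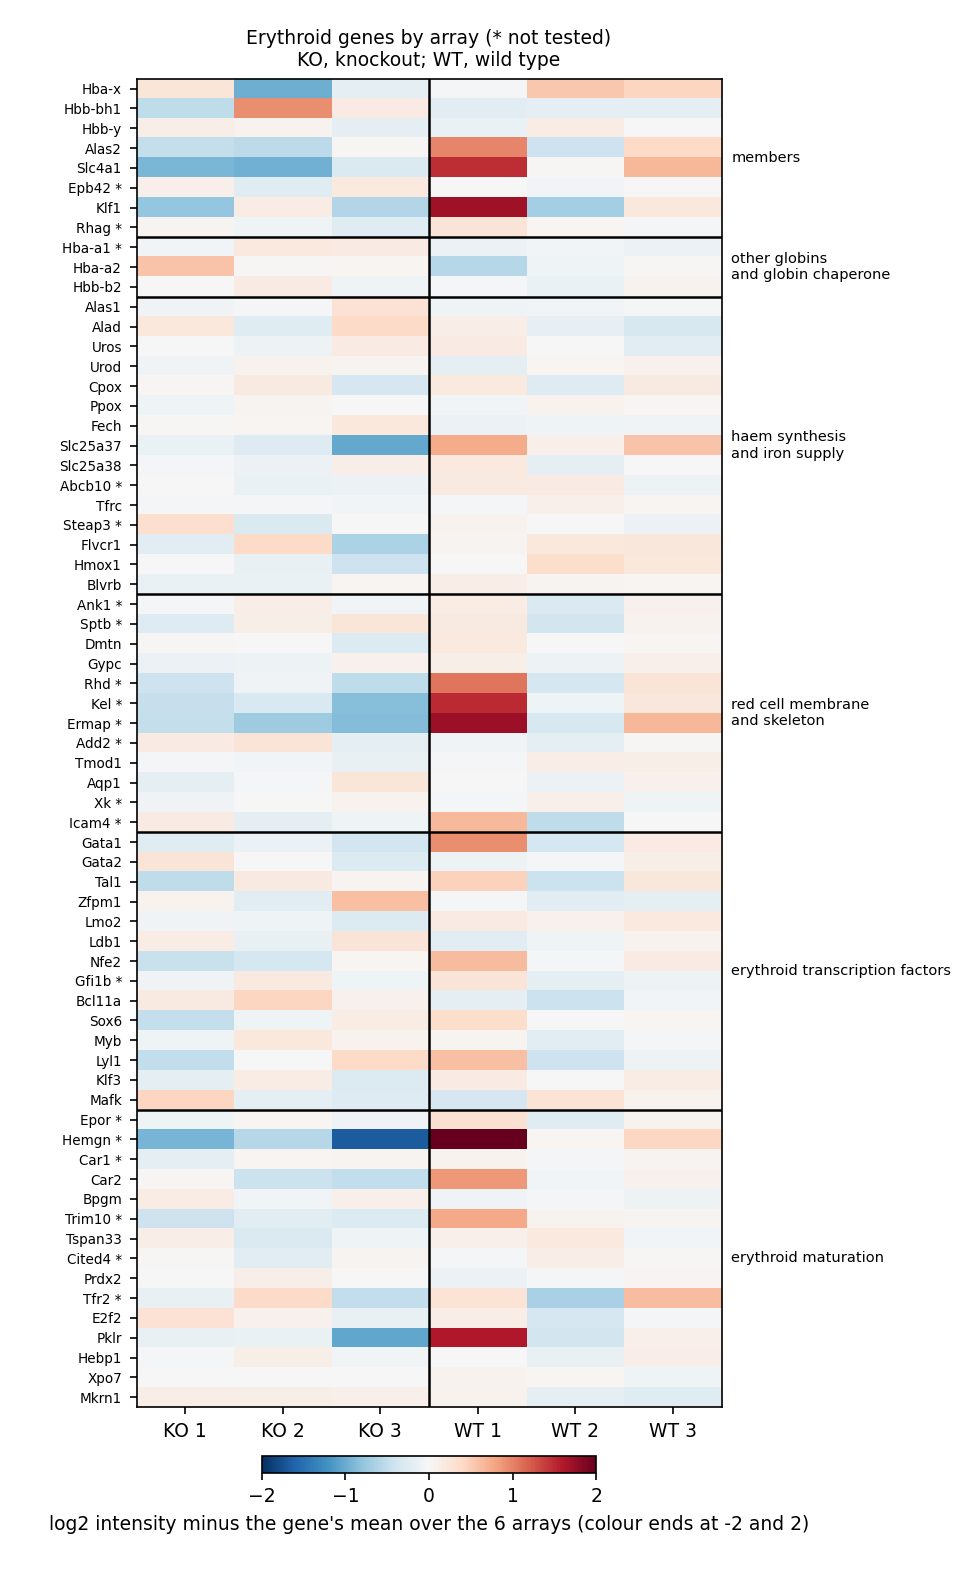
Log2 intensity of each erythroid gene minus its own mean over the 6 arrays, with members at the top and 5 further lists below, through the brightest probe set of each gene. Columns are the knockout (KO) and wild-type (WT) arrays, red is above and blue below the gene's mean, and an asterisk marks a gene under the filter. The strongest red stands in the column of wild-type replicate 1, for Slc4a1, Klf1, Ermap, Kel, Pklr and Hemgn.

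Markers of cells that share the blood and vessels were set beside these results. Those named that did not pass, and the ovary markers named above, were chosen after their values were seen. All 12 macrophage and leukocyte genes were tested, and 2 fell, Ptprc (by 1.06 ± 0.25, limma adjusted p = 0.0357) and Mrc1 (by 0.72 ± 0.17, 0.0358). The summed intensity of that list was 6292 to 9739 in knockout against 8576 to 10988 in wild type, lowest on knockout replicate 1. Of 9 tested endothelial genes 2 fell, Flt1 (by 0.88 ± 0.19, limma adjusted p = 0.0184) and Tek (by 0.51 ± 0.13, 0.0452), and 2 of the 11, Pecam1 and Cdh5, were under the filter. Their sum was 2726 to 3644 in knockout against 3630 to 4138 in wild type. Of all 11897 tested genes, 2.27% were called lower and 46.6% had a negative difference. The difference was negative for 12 of 12 macrophage and leukocyte genes (median -0.33) and 7 of 9 endothelial genes (median -0.22). The part of vessel content in the Slc4a1 difference was not tested.

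Of 7 megakaryocyte genes on the array, 6 were under the filter, and Pf4, the platelet chemokine, differed by -0.38 ± 0.16 (limma adjusted p = 0.222). That list summed to 1014 to 1309 in knockout against 1355 to 1922 in wild type. Fetal hepatocyte genes, whose organ makes red cells at this age, summed to 142 to 650 in knockout and to 259, 528 and 6660 in wild type. Afp and Alb read log2 11.7 and 9.03 on wild-type replicate 3, against at most 8.84 and 5.47 on the other arrays. Without wild-type replicate 3 the Slc4a1 difference was -1.47 and did not pass (limma adjusted p = 0.0682). The part of liver RNA in that difference was not tested.

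**Figure D4:**
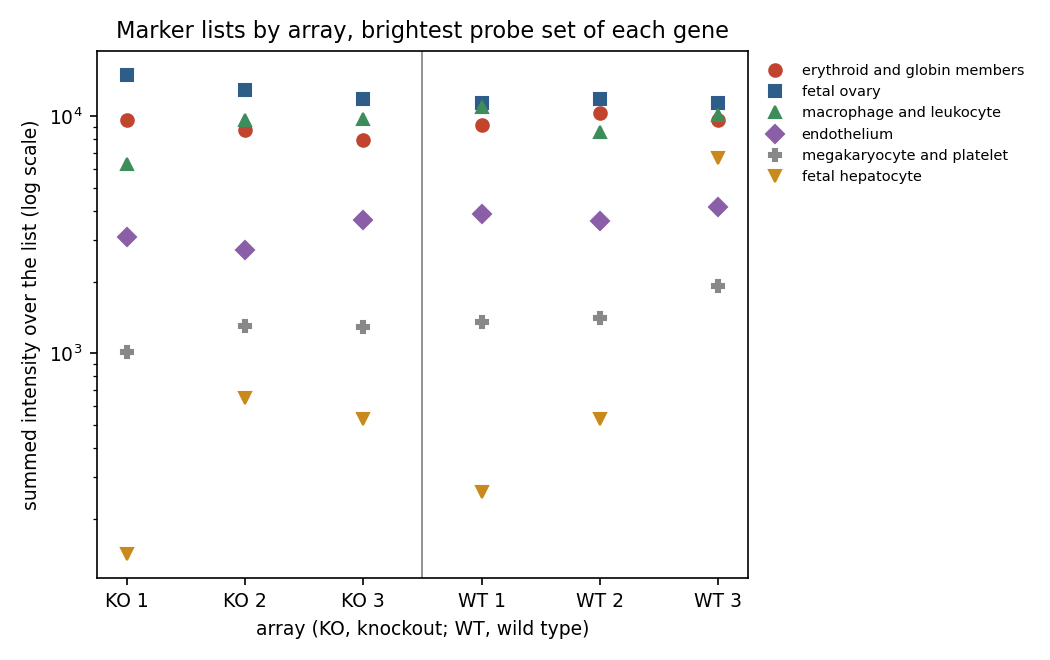
Summed GCRMA intensity of the erythroid and globin members and of 5 marker lists on each array, on a log scale, through the brightest probe set of each gene, to be compared between arrays within a list only. The member sum, which Hbb-y dominates, ranged from 7959 to 9679 in knockout and from 9234 to 10338 in wild type. The hepatocyte sum stands out on wild-type replicate 3, at 6660.

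The scale of the arrays bears on small differences. The median over all probe sets was 0.14 lower on the log2 scale in knockout than in wild type. With each array centred on its median, the median difference of all tested genes moved from 0.02 to 0.16, and the lower share of called probe sets moved from 77.9% to 48.7%. Slc4a1 then differed by -1.31 (limma adjusted p = 0.0367), and Hbb-y by 0.12 (0.465), the only tested member whose sign changed under centring.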

How the data were processed

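The labels describe total RNA, biotin labelling and Affymetrix arrays. Per the submitters' processing notes, the authors made the deposited intensity values with GCRMA. Its version and settings are not given in the sources used here. Values are linear, one per probe set and array, and were taken to log2. No detection calls were used, and the number of arrays limits the precision.

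From 45101 probe sets, 64 controls were left out. Probe sets reaching log2 4 on at least 3 of 6 arrays were tested (22040). Names came from the platform annotation, with gene identifiers looked up in RefSeq GRCm38.p6 (0 symbols changed). A name was used only where a probe set gives 1 gene (34945), not several (932) or none (9160). Of 128 list genes, 111 were named alone by a probe set. The test was limma's, version 3.58.1 under R 4.3.3, 2-sided, from lmFit and eBayes with an intensity trend, adjusted by Benjamini-Hochberg over all tested probe sets, threshold 0.05. A gene counts through its brightest probe set. The fit was tested on simulated data, where it called 3 of 50 changes of 0.5 on the log2 scale and 31 of 50 changes of 1. It called 45 of 50 changes of 2 and 49 of 50 changes of 3. Changes of 0.5 were thus mostly missed, and changes of 1, 2 or 3 could be missed too.

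The members and lists were chosen with earlier results of these data known. Genes named are the members, up to 3 genes of smallest p per erythroid list, called genes of other cell lists, and the 5 genes nearest in profile. Others are marked in the text. Alternatives covered the filter, moderation, array weights, replicate block, normalization, probe set choice, an added 16 and each array left out. The joint removal of knockout replicate 1 and wild-type replicate 3 was chosen after seeing the data.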

Additional observations from a re-analysis of the deposited data

How the results depend on the processing

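Slc4a1 kept its direction under all 18 alternatives, and its call under 11 of them. The count of called members was 0, not 1, with eBayes without a trend (limma adjusted p = 0.0564) and with the mean of all probe sets of a gene (0.0639). It was also 0 without knockout replicate 1 and wild-type replicate 3 together (0.135). The same held without knockout replicate 1, knockout replicate 2, wild-type replicate 1 or wild-type replicate 3 singly. Leaving out single arrays gave 0 to 1 called members, 0 to 1 called genes of the other erythroid lists, and member medians of -0.76 to -0.24. With no filter, 2 of the other erythroid genes passed, Hemgn and Slc25a37, and the median over the 8 members was -0.40. The tested member Hbb-y, which did not pass in any fit, changed sign with array weights (0.0014) and with median centring (0.12), and without single arrays it ran from -0.084 to 0.081. Over all probe sets, 1455 were called, 1134 of them lower in knockout. These counts were 3282 and 1957 with no filter, 644 and 504 with the stricter filter, 830 and 687 without that pair of arrays, and 808 to 1541 and 645 to 1119 without single arrays. The replicate block gave 1043 calls and kept Slc4a1 (limma adjusted p = 0.015). For deviations from the group mean, same-numbered arrays had r of -0.17, -0.25 and -0.17. Deviations within a group of 3 sum to zero, so the r values must offset one another. They cannot show whether the numbers pair the arrays. The positive r values were between differently numbered arrays. For knockout replicate 1 with wild-type replicate 2, r was 0.33. It was 0.34 for knockout replicate 2 with wild-type replicate 3, and 0.24 for knockout replicate 3 with wild-type replicate 1. The remaining pairs had r of -0.15 to -0.08. The labels do not say whether arrays were matched in this way, and a block on such a matching was not tested. Probe sets of Hbb-y, Hbb-bh1 and Alas2 all end in _x_at or _a_at, so these genes could not be fitted without such probe sets. The mean over probe sets gives no count of probe sets. Signals near the floor limit Klf1, Hbb-bh1, Epb42 and Rhag.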

Other observations

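The 5 tested genes nearest to the median profile of the tested members over the 6 arrays were Serac1, Ifnz, Chic1, Lipa and Slc9a9. Nearness was the root mean square difference of profiles, each centred on its own mean, and was 0.07 to 0.10 log2 units for these genes. The 6 tested members themselves lay 0.29 (Alas2) to 0.61 (Klf1) from that median. Lipa, the lysosomal acid lipase, read log2 8.27 to 8.57 in knockout, and in wild type 8.78 to 9.16. Slc9a9, a sodium and proton exchanger of endosomes, read 6.20 to 6.60 in knockout, and in wild type 6.83 to 7.12. The median profile is itself highest on wild-type replicate 1 and higher on each wild-type array than on the knockout arrays, so choosing genes near it favours that pattern, which all 5 show. None of the 5 passed (limma adjusted p = 0.072 to 0.197).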
